A study of Mus musculus with 8 samples.

Results

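The transcripts described here are those of 10 genes that mark the deep layer neurons of the cerebral cortex: Fezf2, Bcl11b, Etv1, Ldb2, Crym, Tbr1, Tle4, Foxp2, Sox5 and Zfpm2. Their probes were found by gene name among the non-control probes of a mouse microarray, which gave 21 probes of the 55655 probes analysed. Of these, 17 were tested because they stood well above background on 4 or more of the 8 arrays, among 27157 such probes in all. Each of the 10 genes had at least 1 tested probe, 7 genes had more than 1, and 3 genes had 1. The 4 probes that were not tested were 3 of the 5 for Foxp2 and 1 of the 3 for Sox5.

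The study asked how a brief loss of uterine blood flow before birth affected transcript levels in the newborn cortex. The ischemia group held 4 male C57BL/6NCr pups whose mothers, anesthetised at E16.5, had clips on the uterine arteries for 14 min. The control group held 4 male C57BL/6NCr pups, and the labels do not say whether their mothers were operated on. Cortex was taken at postnatal day 1.5 in both groups, and each pup's RNA went onto 1 one-colour Agilent array. The labels do not say which pups shared a mother, so p-values measure the spread between the sampled pups.

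Cortical projection neurons are born from the inside out, so that the neurons of layers 5 and 6 are made before those of the upper layers. Layer 5 sends axons to the brainstem and spinal cord, and layer 6 sends them to the thalamus. Transcription factors that repress one another set these fates: Fezf2 and Bcl11b favour the layer 5 subcerebral identity and Tbr1 favours the layer 6 corticothalamic one.

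All 8 arrays lay on 1 slide, with the ischemia arrays in the second slide row and the control arrays in the first, so slide row and group cannot be told apart. Per array, 47.6% to 51.7% of the non-control spots stood well above background, with 0 saturated. The labelled tissue was checked on Emx1 and Neurod6, which mark cortical excitatory neurons. Emx1 read 926.0, 967.0, 930.2 and 965.4 units on the ischemia arrays, against 936.1, 978.5, 943.6 and 965.8 units on the control arrays, and Neurod6 read 7052 to 8246 units on the ischemia arrays, against 7118 to 8735 units on the control arrays. Both markers were thus present at overlapping levels. Units here are processed signal on a linear scale, with each array scaled so that its 75th percentile equals the geometric mean of that percentile over the 8 arrays. Brightness depends on a probe's sequence, so levels are compared between arrays for 1 probe and never between probes.

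What each probe reads is set by its sequence of 60 bases, and 7 of the 21 are shown, in whole or in part, because results below turn on them. The bases come from the array files, 5′ to 3′, and positions are in mm9 as the files give them. The first set covers Fezf2, the only member whose groups did not overlap, the brighter Bcl11b probe, and the Foxp2 probe with the widest interval.
Fezf2, chr14:13175057-13175116, minus strand: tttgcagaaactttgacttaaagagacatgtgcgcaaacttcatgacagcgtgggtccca
Bcl11b, chr12:109153847-109153906, minus strand: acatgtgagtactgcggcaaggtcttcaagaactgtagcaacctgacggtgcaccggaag
Foxp2, chr6:15363873-15365044, plus strand: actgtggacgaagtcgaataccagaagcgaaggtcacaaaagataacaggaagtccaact

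The listed span of that Foxp2 probe is 1172 bases, longer than the probe. The Sox5 pair is shown because the brighter probe is a repeat of the triplet GGA, marked by capitals in its first 30 bases, while the dimmer probe is not.
Sox5, brighter probe, chr6:143776945-143776971, minus strand: GGAGGAGGAGGAagaGGAGGAGGAGGAaga
Sox5, dimmer probe, chr6:143781520-143781579, minus strand: ttacaagcaaaaacgtcatcaagaagaaga

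The brighter Sox5 probe holds 16 GGA triplets, where the median probe of the array holds 1, and 5 probes of the array, itself included, hold as many. It shares runs of 20 bases with 18 other probes, all of them named for another gene or feature, and no other member probe shares such a run with any probe. The files list 27 bases of mm9 for it. Whether its signal comes from Sox5 alone was not tested. The values of both tested Sox5 probes are given below, but wherever 1 value per gene is used, Sox5 stands for the repeat probe alone. With the dimmer Sox5 probe in its place, the median difference of the 10 genes was 0.01. The Zfpm2 probes overlap by 7 bases, in capitals at the end of 1 probe and at the start of the other, so they read neighbouring stretches of the same transcript.
Zfpm2, dimmer probe, last 30 bases, chr15:40935062-40935121, plus strand: ctcatcacatgcagcagaacatgTCAAATG
Zfpm2, brighter probe, first 30 bases, chr15:40935115-40935174, plus strand: TCAAATGaactaactgagttactaaagaaa

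No deep layer gene differed between ischemia and control cortex by the adjusted test. With limma and Benjamini-Hochberg adjustment over all 27157 tested probes, 0 of the 17 member probes had an adjusted p under 0.05, and their adjusted p ran between 0.408 and 0.993. The same test called 0% of all probes. At an unadjusted p under 0.05 it counted 1 member probe, that of Fezf2, which was higher after ischemia, where 10.1% of all tested probes passed that threshold, 3.05% higher and 7.07% lower. Fezf2 was also the 1 member probe whose groups did not overlap, against 6.24% of all tested probes, 2.18% on the higher side and 4.05% on the lower side. In a bulk tissue, fewer cells of a type and less RNA per cell cannot be told apart.

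For 9 of the 10 genes the 95% interval of the brightest probe lay inside a 1.5-fold difference in both directions. Differences are ischemia minus control on the log2 scale, and over the 17 probes they lay between -0.23 and 0.31. The 95% interval lay inside a 1.5-fold difference in both directions for 14 of 17 probes, and inside a 2-fold difference for all 17. Of the 17 probes, 10 were higher and 7 lower in ischemia cortex, and by the brightest probe of each gene 6 genes were higher and 4 lower. The median difference of the 10 genes was 0.01, beside -0.02 over all 19772 genes tested, of which 42.9% were higher. The median size of the difference was 0.07 over the member probes and 0.09 over all tested probes. The median SD within groups on the log2 scale was 0.13 for the brightest probes of the 10 genes and 0.22 for all 17 member probes, beside 0.14 over all tested probes. Among the 17 it ran between 0.05 for the brighter Etv1 probe and 0.48 for a dim Foxp2 probe.

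**Figure D1:**
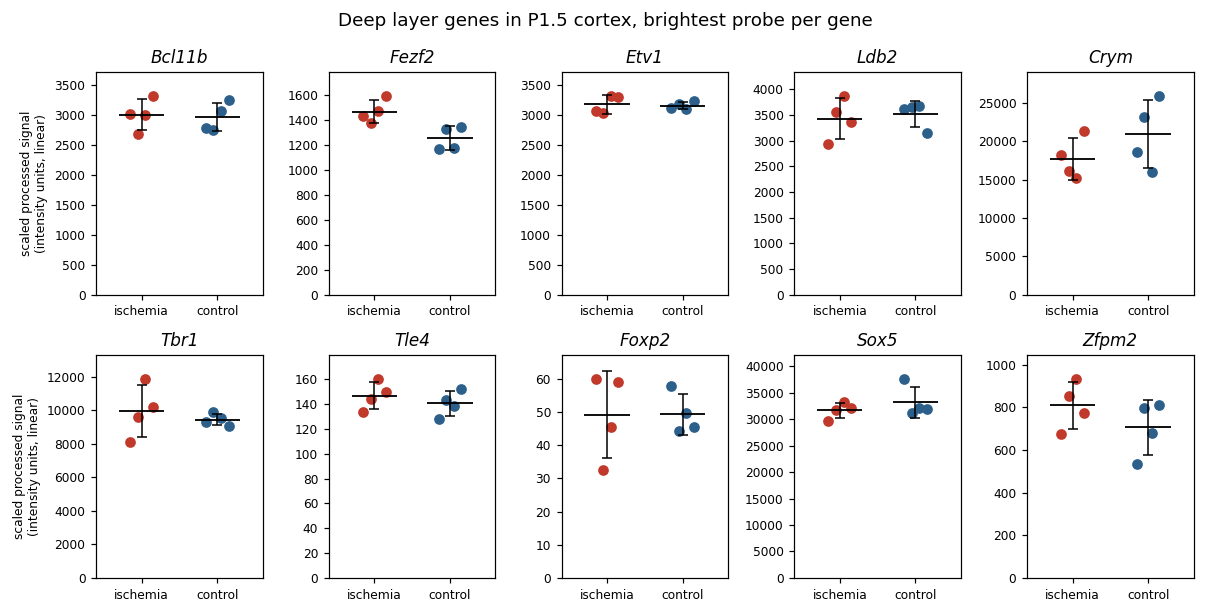
Scaled processed signal (linear intensity units, axes from 0) of the brightest probe of each of the 10 deep layer genes, 1 point per array, with the mean and SD of the 4 ischemia arrays (red) and the 4 control arrays (blue). The 4 Fezf2 points of ischemia cortex, 1373 to 1594 units, lie above all 4 control points, 1167 to 1347 units, and the groups overlap for the other 9 genes.

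Fezf2 encodes a zinc finger factor that is needed for the subcerebral projection neurons of layer 5, including those that form the corticospinal tract. Its probe read 1429, 1373, 1469 and 1594 units on the ischemia arrays, against 1167, 1325, 1178 and 1347 units on the control arrays. The lowest ischemia array lay just above the highest control array. The means were 1466 ± 93.8 units in ischemia cortex and 1254 ± 95.1 units in control cortex (SD, n = 4 each). The fold of ischemia over control was 1.17, with a 95% interval between 1.03 and 1.32, and the log2 difference of 0.23 (SE 0.08) had an unadjusted p of 0.0187 and a limma adjusted p of 0.408. The unadjusted p was above 0.05 without ischemia replicate 4 (0.0561), without control replicate 1 (0.0531) and without control replicate 3 (0.0511). Fezf2 has 1 probe on the array, so no other probe bears on this difference.

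Bcl11b, also called Ctip2, encodes a zinc finger factor that acts with Fezf2 in corticospinal neurons and guides their axon growth, and is also strongly expressed in striatal neurons. Its brighter probe read 3027, 2689, 3000 and 3325 units in ischemia cortex, against 2791, 2752, 3065 and 3257 units in control cortex. The groups overlapped almost fully, with a log2 difference of 0.02 (SE 0.09, limma adjusted p = 0.960). The other probe, at chr12:109148932-109148991, read 1891, 1867, 2151 and 2135 units in ischemia cortex, against 1956, 1862, 2007 and 1967 units in control cortex, a log2 difference of 0.04 (SE 0.07). Both Bcl11b intervals included 0, running from -0.18 to 0.22 for the brighter probe and from -0.12 to 0.20 for the other.

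Etv1, also called Er81, encodes an ETS factor of layer 5 neurons. The brighter Etv1 probe, at chr12:39593054-39593113, read 3064, 3035, 3328 and 3311 units in ischemia cortex, against 3129, 3186, 3106 and 3234 units in control cortex. This was the steadiest of the 17 probes, and its 95% interval, -0.13 to 0.14 on the log2 scale, was the narrowest around a difference of 0.01 (SE 0.06). The dimmer Etv1 probe, at chr12:39594622-39594681, read between 53.57 and 83.48 units in ischemia cortex and between 51.0 and 75.51 units in control cortex, a log2 difference of -0.07 (SE 0.17).

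Ldb2 encodes a cofactor that binds LIM domain proteins and marks layer 5 neurons. The Ldb2 probe, at chr5:44863390-44863449, read 2933, 3561, 3875 and 3353 units in ischemia cortex, against 3607, 3661, 3681 and 3151 units in control cortex. Control replicates 1 to 3 lay within a narrow band and replicate 4 lay below it. The log2 difference was -0.04 (SE 0.10).

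Crym encodes mu-crystallin, a thyroid hormone binding protein enriched in subcerebral projection neurons. The Crym probe, at chr7:127329970-127330029, read 18249, 16108, 15223 and 21375 units in ischemia cortex, against 18650, 23142, 16011 and 25981 units in control cortex. It had the lowest difference of the 17 probes, -0.23 on the log2 scale, with an SE of 0.17, a 95% interval from -0.61 to 0.16 and a limma adjusted p of 0.705. It was -0.12 without control replicate 4 and -0.35 without control replicate 3. The groups overlapped, and the 2 lowest control arrays lay among the ischemia arrays. Crym is the 1 gene of the 10 whose interval for the brightest probe reaches beyond a 1.5-fold difference.

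Among the factors of layer 6, Tbr1 encodes a T-box factor that sets corticothalamic fate and is also expressed in the subplate, the layer beneath it. The brighter Tbr1 probe, at chr2:61652093-61652152, read 8122, 9596, 11852 and 10152 units in ischemia cortex, against 9267, 9870, 9502 and 9078 units in control cortex. The ischemia arrays spread more widely and held both the lowest and the highest value, with means of 9931 ± 1541 units in ischemia cortex and 9429 ± 341 units in control cortex (SD, n = 4 each). The log2 difference was 0.06 (SE 0.11, limma adjusted p = 0.888). The dimmer Tbr1 probe, at chr2:61644054-61644113, gave -0.07 (SE 0.15), with 203.7 to 295.6 units in ischemia cortex and 223.5 to 325.9 units in control cortex.

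Tle4 encodes a Groucho co-repressor found in corticothalamic neurons. The brighter Tle4 probe, at chr19:14524206-14524265, read 133.8, 143.8, 160.2 and 149.7 units in ischemia cortex, against 128.2, 143.5, 138.3 and 152.2 units in control cortex, a log2 difference of 0.06 (SE 0.08). The dimmer Tle4 probe, at chr19:14522562-14522621, read 84.18, 100.1, 101.5 and 126.5 units in ischemia cortex, against 87.54, 70.12, 78.0 and 94.9 units in control cortex. That is the highest difference among the 17 probes, 0.31 on the log2 scale (SE 0.14, limma adjusted p = 0.503), and 1 ischemia array lay inside the control range. With normexp, another background correction, this probe's difference was 0.16.

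Foxp2 encodes a forkhead factor of layer 6 that is known for its role in human speech and is also expressed in the striatum and thalamus. The brighter Foxp2 probe, at chr6:15391821-15391880, read 59.97, 32.59, 45.37 and 59.11 units in ischemia cortex, against 57.84, 44.23, 49.71 and 45.58 units in control cortex, with a log2 difference of -0.04 (SE 0.20). The other tested Foxp2 probe read 44.72, 38.86, 24.54 and 29.97 units in ischemia cortex, against 35.98, 15.56, 29.08 and 34.64 units in control cortex. It was well above background on 3 ischemia and 2 control arrays, and its difference of 0.30 (SE 0.29) was 0.08 with normexp. The remaining 3 Foxp2 probes, which lie further upstream on chromosome 6, were well above background on 0 of 8 arrays.

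Sox5 encodes a SOX factor that controls the order in which subplate, layer 6 and layer 5 neurons take on their identities. The GGA repeat probe read 29765, 31759, 33284 and 32062 units in ischemia cortex, against 37638, 31252, 32198 and 31925 units in control cortex. Control replicate 1 stood above the other 7 arrays, and the log2 difference was -0.07 (SE 0.08). The 18 other probes that share 20 bases with it had differences between -0.22 and -0.01. The dimmer tested Sox5 probe read 26.0, 40.04, 34.11 and 49.82 units in ischemia cortex, against 47.97, 29.99, 33.47 and 37.76 units in control cortex. Its difference was -0.01 (SE 0.21), with an interval from -0.50 to 0.48, and it was well above background on 3 ischemia and 4 control arrays. The remaining Sox5 probe was well above background on 1 ischemia and 0 control arrays.

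Zfpm2, also called Fog2, encodes a GATA cofactor that marks corticothalamic neurons. The brighter Zfpm2 probe read 673.0, 854.1, 932.6 and 775.3 units in ischemia cortex, against 534.8, 795.5, 679.8 and 811.7 units in control cortex. The ranges overlapped, and the log2 difference was 0.21 (SE 0.15, 95% interval -0.15 to 0.56, limma adjusted p = 0.706). It was 0.08 without control replicate 1, 0.13 without ischemia replicate 3 and stayed within 1.5 times of 0.21 without any other array. The dimmer Zfpm2 probe read 404.0, 515.6, 523.3 and 458.3 units in ischemia cortex, against 363.0, 520.9, 396.5 and 494.2 units in control cortex, a log2 difference of 0.11 (SE 0.14). Control replicate 1 was the lowest array for both.

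**Figure D2:**
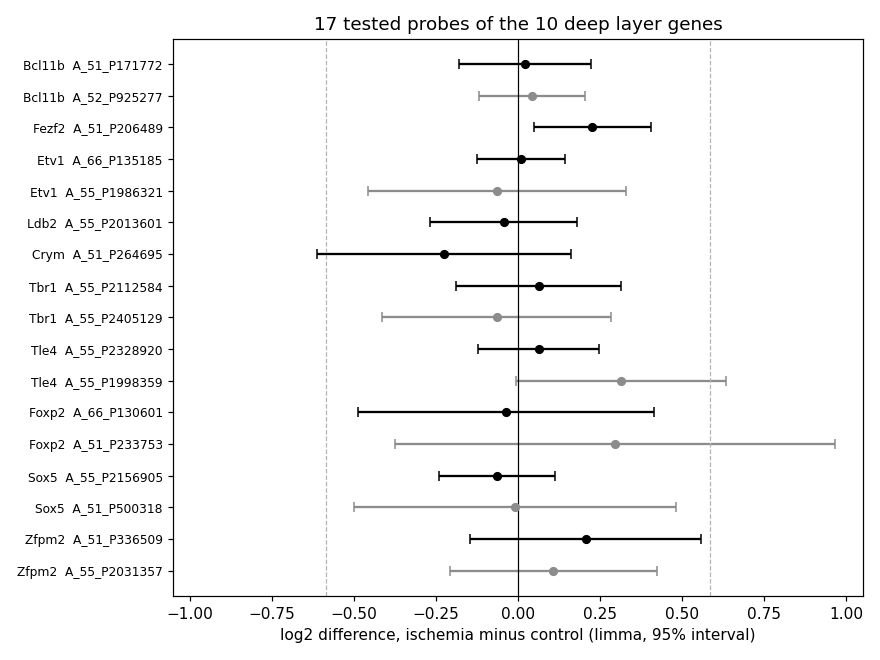
Log2 difference, ischemia minus control, with the 95% limma interval for the 17 tested probes, black for the brightest probe of a gene and grey for its other probes, and dashed lines at a 1.5-fold difference. The Fezf2 interval, 0.05 to 0.40, is the 1 interval that does not cross 0, and the interval of the dimmer Tle4 probe starts at -0.01.

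For the 7 genes with 2 tested probes, the probes of a gene were set against each other. The difference of the 1 probe minus that of the other was 0.25 for Tle4 (dimmer minus brighter), 0.33 for Foxp2 (dimmer minus brighter) and -0.10 for Zfpm2 (dimmer minus brighter). Labels were permuted in all 70 ways (exact, two-sided, smallest p 0.0286), and the p of the probe difference was 0.114 for Tle4, 0.457 for Foxp2 and 0.171 for Zfpm2, and after adjustment over the 7 genes the smallest was 0.6. After removal of the group means, the Zfpm2 probes varied together over the 8 arrays (Pearson r = 0.95, exact permutation p = 0.00347, adjusted over the 7 genes 0.0243, and 0.90 without the 2 farthest arrays). Spearman's rho for Zfpm2 was 0.90 (exact permutation p = 0.0122). The r of the other genes was 0.70 for Sox5, 0.68 for Tbr1, 0.64 for Bcl11b, 0.49 for Etv1, 0.38 for Tle4 and 0.20 for Foxp2, and their adjusted exact permutation p ran between 0.174 and 0.611.

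Over the 10 genes as a set, ischemia and control arrays overlapped. Each gene's deviation from its own control mean was taken on the brightest probe. The median of the 10 deviations was -0.06 on ischemia replicate 1, -0.02 on replicate 2, 0.11 on replicate 3 and 0.10 on replicate 4, against -0.05, 0.05, -0.02 and 0.07 on control replicates 1 to 4. Of the 10 genes, 3, 5, 8 and 8 were above their control mean on ischemia replicates 1 to 4, against 3, 7, 4 and 6 on control replicates 1 to 4. The members at the extremes differed from pup to pup. Zfpm2 was the highest member on ischemia replicates 2 (0.30) and 3 (0.42), Foxp2 on replicate 1 (0.29) and Fezf2 on replicate 4 (0.35). The lowest member was Ldb2 on ischemia replicates 1 (-0.26) and 4 (-0.07), Foxp2 on replicate 2 (-0.59) and Crym on replicate 3 (-0.44).

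**Figure D3:**
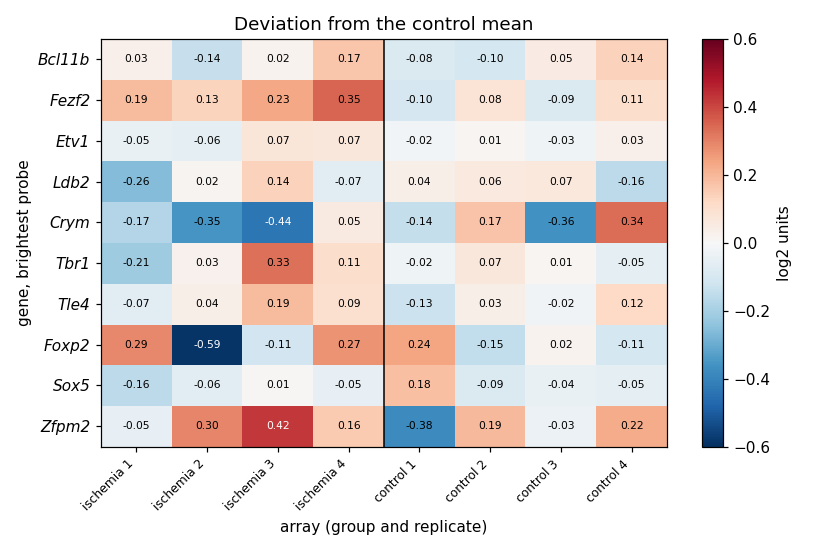
Deviation of each deep layer gene from its control mean (log2 units, brightest probe, red higher and blue lower) on the 4 ischemia arrays, left of the line, and the 4 control arrays, right of it. Fezf2 is above 0 on all 4 ischemia arrays, between 0.13 and 0.35. Crym and Sox5 are each below 0 on 3 of them, and every gene but Fezf2 takes both signs there.

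The members were also compared with one another over the 8 arrays after removal of the group means, as 45 pairs with exact permutation within groups, which allows a smallest p of 0.00174. Pearson's r was above 0 for 31 pairs, with a median of 0.25 and a range from -0.67 to 0.90. An unadjusted p under 0.05 was found for 5 pairs and an adjusted one for 0, the smallest adjusted p being 0.375. The highest r was that of the layer 6 genes Tle4 and Zfpm2, 0.90 (exact permutation p = 0.00868, adjusted 0.375), with a rho of 0.86 (exact permutation p = 0.0122, adjusted 0.5) and an r of 0.71 without the 2 farthest arrays.

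Other genes of the same neurons were read from the same fit, by the brightest probe of each gene, and 0 genes of any list below passed the adjusted threshold. At an unadjusted p under 0.05, limma counted 10.4% of all genes, 3.02% higher and 7.39% lower. Of 11 further layer 5 genes, 4 were higher and 7 lower in ischemia cortex, with a median difference of -0.11 and 2 genes lower at an unadjusted p under 0.05. The median was -0.05 without ischemia replicate 1 and -0.17 without control replicate 2. Diaph3, an actin nucleator of the formin family, read 293.4, 340.2, 243.5 and 247.6 units in ischemia cortex, against 341.4, 435.1, 345.6 and 363.5 units in control cortex. The groups did not overlap, as for 4.05% of all tested probes on the lower side. The log2 difference was -0.41 (SE 0.13, limma adjusted p = 0.379). S100a10, the annexin A2 partner that marks layer 5 neurons, had a difference of -0.29 (SE 0.10, limma adjusted p = 0.416).

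Of 8 further layer 6 genes, 7 were higher and 1 lower in ischemia cortex, with a median difference of 0.10 and 1 gene higher at an unadjusted p under 0.05. Grik3, a kainate receptor subunit, read 1578, 2033, 1996 and 1761 units in ischemia cortex, against 1536, 1548, 1503 and 1501 units in control cortex, a log2 difference of 0.27 (SE 0.09, limma adjusted p = 0.394). Hs3st4, a heparan sulfate sulfotransferase, read 4114, 4480, 4199 and 4452 units in ischemia cortex, against 4048, 3912, 3907 and 4041 units in control cortex. Its difference was 0.12 (SE 0.06, limma adjusted p = 0.538) and 0.28 on its other probe. On the brightest probe of both genes every ischemia array lay above every control array, by a small margin. The same held for 2.18% of all tested probes, and both genes were named for the smallest p of their list.

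Of 7 subplate genes, 6 were measured, Tmem163 being the one not tested. Of the 6, 5 were higher and 1 lower, with a median difference of 0.16 that was 0.04 without ischemia replicate 4. At an unadjusted limma p under 0.05, 1 was higher and 1 lower. Cplx3, a complexin of the synaptic vesicle machinery, read 46.23, 38.04, 30.14 and 47.46 units in ischemia cortex, against 63.31, 47.67, 59.56 and 63.26 units in control cortex, a log2 difference of -0.54 (SE 0.16, limma adjusted p = 0.353). The Cplx3 probe is dim, and normexp gave smaller differences for the dimmer tested probes of Foxp2 and Tle4. The value of Cplx3 with normexp is not given here. Ccn2, a secreted matricellular protein also called Ctgf, stood at 0.27 (SE 0.12, limma adjusted p = 0.486), in the other direction. These 2 subplate genes thus lay on opposite sides of 0.

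Of 14 upper layer genes, 13 were measured, Unc5d being the one not tested. Of the 13, 7 were higher and 6 lower, with a median of 0.05 and 0 at an unadjusted p under 0.05. The 2 with the smallest p were Cited2, a CBP/p300 binding regulator, at 0.25 (limma adjusted p = 0.510), and Rasgrf2, a Ras exchange factor, at -0.20 (limma adjusted p = 0.535). Their other probes gave 0.14 for Cited2 and 0.02 for Rasgrf2. Regulators and partners of the deep layer factors numbered 9, and all 9 were higher, with differences between 0.01 and 0.31. Their median was 0.05, and it was -0.01 without ischemia replicate 3. On ischemia replicates 1 to 4, 1, 2, 9 and 5 of the 9 lay above the highest control array. At an unadjusted limma p under 0.05, 1 of the 9 was higher and 0 lower. Ski, a co-repressor that helps to silence Bcl11b in upper layer neurons, read 113.4, 161.5, 143.5 and 118.3 units in ischemia cortex, against 112.0, 103.0, 115.5 and 98.8 units in control cortex, a difference of 0.31 (SE 0.12, limma adjusted p = 0.450). Nr2f1, a nuclear receptor that patterns the cortical areas, stood at 0.13 (limma adjusted p = 0.724) and at 0.02 on its other probe.

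Genes reported as targets of Tbr1, Fezf2 or Foxp2 numbered 7, of which 3 were higher and 4 lower, with a median of -0.01 and 0 at an unadjusted p under 0.05. Reln, the secreted guide of neuron migration and a target of Tbr1, stood at 0.16 (SE 0.16, limma adjusted p = 0.791), and Srpx2, a secreted protein and target of Foxp2, at -0.13 (SE 0.13, limma adjusted p = 0.787). Both differences were about the size of their standard errors.

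**Figure D4:**
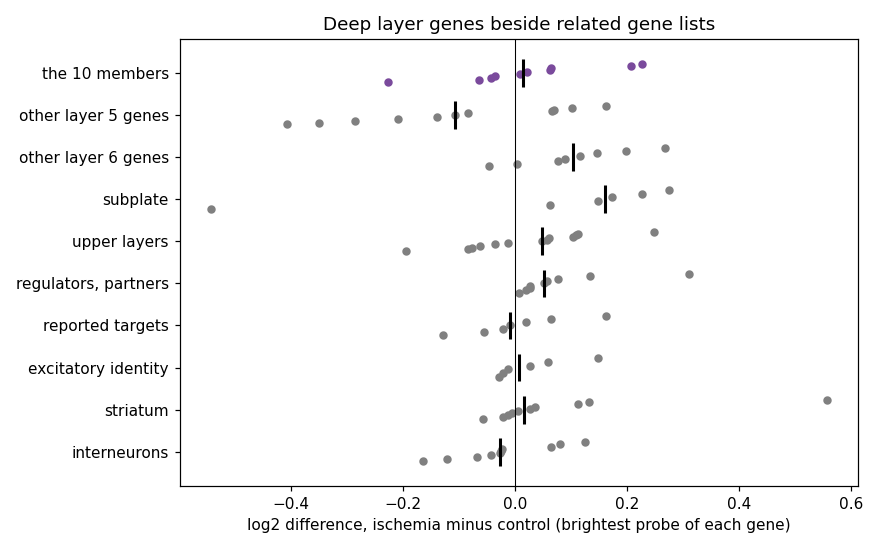
Log2 difference, ischemia minus control, of the brightest probe of each gene in the 10 deep layer genes (purple) and in 9 related lists (grey), with a bar at each list's median. The members' median of 0.01 lies between those of the other layer 5 genes, -0.11 (-0.17 to -0.05 with 1 array left out), and the other layer 6 genes, 0.10 (0.09 to 0.14).

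Several members are also expressed outside cortical layers 5 and 6, so markers of neighbouring tissue and of other cells were set beside them. Of 13 striatal neuron markers 10 were measured, with Drd2, Isl1 and Six3 not tested, and their summed signal was 17459 to 19492 units in ischemia cortex and 17130 to 18839 units in control cortex. A sum is weighted by its brightest probes, and 80.9% of the striatal one came from 2 probes. The median deviation of the 10 markers from their control mean, which weights each gene alike, was -0.05 to 0.20 on the ischemia arrays and -0.02 to 0.07 on the control arrays. The defining striatal marker Ppp1r1b, or DARPP-32, stood at 0.13 (SE 0.18) and Drd1, the dopamine receptor, at 0.00 (SE 0.10). Ebf1, a striatal transcription factor, had the smallest p of the list, with a difference of 0.56 (limma adjusted p = 0.512). It read 83.16, 39.85, 39.08 and 68.86 units in ischemia cortex, against 40.11, 30.66, 37.63 and 41.18 units in control cortex. Only ischemia replicates 1 and 4 thus lay above all control arrays. The Ebf1 probe is dim, and its value with normexp is not given here. The striatal median was 0.02, with 6 higher and 4 lower. The levels of both defining markers overlapped between the groups.

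Cortical excitatory identity genes, 6 of 6 measured, had a median of 0.01 and summed to 49040 to 62167 units in ischemia cortex and 53082 to 54519 units in control cortex. Neurod2 stood at 0.15, Nrgn at 0.06 and Neurod6 at -0.03. Thalamic markers were measured for 5 of 6 genes, Gbx2 not being tested, with 1 higher, 4 lower, a median of -0.08 and sums of 1518 to 1716 units in ischemia cortex and 1458 to 1927 units in control cortex. Tcf7l2 stood at -0.16 on its brightest probe and 0.08 on its other, and Slc17a6 at -0.09. Without control replicate 4 the thalamic median was 0.03. Hippocampal markers, 5 of 5 measured, had 2 higher, 3 lower, a median of -0.06 and sums of 3244 to 3592 units in ischemia cortex and 3036 to 4346 units in control cortex, with Lct at -0.28 and Wfs1 at -0.15. Without control replicate 4 the hippocampal median was 0.04. Cortical interneuron markers, 10 of 10 measured, had 3 higher, 7 lower, a median of -0.03 and sums of 22603 to 23382 units in ischemia cortex and 22354 to 25815 units in control cortex, with Dlx1 at 0.13 and Sp8 at -0.17 on its brightest probe and 0.20 on its other. For each of these 4 lists 0 genes had an unadjusted limma p under 0.05, and the ranges of the sums overlapped.

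Markers of tissue around the cortex differed more between pups. Ptgds, a prostaglandin synthase of the meninges, read 2937, 296.1, 354.6 and 3970 units in ischemia cortex, against 175.3, 353.9, 159.7 and 183.0 units in control cortex. Of 10 meningeal markers 8 were higher and 2 lower, with a median of 0.34 (0.17 without ischemia replicate 1 and 0.55 without ischemia replicate 2) and 2 higher at an unadjusted p under 0.05, Ptgds at 2.35 (SE 0.87, limma adjusted p = 0.433) and Igf2 at 0.34, and sums of 1359 to 5687 units in ischemia cortex against 1304 to 1689 units in control cortex. Ttr, which defines the choroid plexus, read 44.35, 18.02, 95.43 and 38748 units in ischemia cortex, against 35.93, 30.2, 34.94 and 38.62 units in control cortex. Ptgds was thus high on ischemia replicates 1 and 4, and Ttr on replicate 4. Of the 10 meningeal markers, 8, 2, 4 and 4 lay above the highest control array on ischemia replicates 1 to 4. Their median deviation from the control mean was 0.99, 0.02, 0.17 and 0.28 on these arrays. Their sum was 5560, 1359, 1904 and 5687 units, with 62.4% of it from 2 probes. By both measures the list was highest on replicates 1 and 4.

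Choroid plexus markers were measured for 5 of 9 genes, with Kl, Clic6, Kcne2 and Prlr not tested, and summed to 240 to 40510 units in ischemia cortex against 306 to 378 units in control cortex. Their median was 0.76, with 3 higher and 2 lower, Folr1 stood at 0.81, and the median was -0.26 without ischemia replicate 4. Blood cell markers were measured for 5 of 6 genes, as no probe was found on the array under the name Hbb-b1. All 5 were lower, with a median of -0.48 and 3 at an unadjusted p under 0.05. Their sums were 52631 to 88466 units in ischemia cortex against 70456 to 127683 units in control cortex. The globins Hba-a2, at -0.54, and Hbb-b2, at -0.57, have near-identical copies that a probe may not tell apart. Without ischemia replicates 1 and 4, an alternative chosen after seeing Ptgds and Ttr, the Fezf2 difference was 0.18 (limma unadjusted p = 0.109, adjusted 0.562), Crym stood at -0.39, Zfpm2 at 0.36 and Foxp2 at -0.35. Leaving out these arrays cannot separate other tissue from the spread between pups. The part of these other tissues in the members' values was not tested.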

How the data were processed

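RNA from the cortex of 8 pups, 4 ischemia and 4 control, was amplified from 50 ng and labelled with Cy3, per the labels' protocols. Per the submitters' processing notes, Agilent Feature Extraction 10.7.3.1 was used. The deposited values are intensities: the background-corrected processed signal of each spot, and for 1 alternative the mean and local background signals. Other deposited columns flag spots above background, saturated or outlying. The authors' value table is a ratio to 1 constant per array, which the sources used here do not define. Where the table's values were above 1, it equalled the processed signal over that constant (within 0.00500%). Smaller values of the table were not checked in this way. Its direction is that of the signal, its medians per array lay between 0.0836 and 0.1003, and it served as an alternative.

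Spots of a probe were averaged, 26 of 55681 probes were dropped for outlier spots, and log2 values were taken minus the array's 75th percentile (305.6 to 393.3). Probes well above background on at least 4 arrays were compared with limma 3.58.1 in R 4.3.3 (lmFit, eBayes, Benjamini-Hochberg adjustment over 27157 probes, threshold 0.05). For 1 value per gene, the tested probe with the highest mean was used, called the brightest, or the brighter of 2. The number of arrays limits the precision. On simulated data with 27157 probes, this fit recovered 34% of 100 probes changed by 0.5 on the log2 scale and 76% of 100 changed by 1. Of the probes left unchanged, 6 were also called. The simulated spread was drawn for each probe alone, without shifts that an array shares over many probes. These shares are thus not the power of the real comparison. Coordinates are mm9, as in the files, and the probes' place in exons or UTRs was not analysed here. All 10 genes matched a RefSeq table (GRCm38.p6), which gave names and no positions.

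The members and all gene lists were chosen with earlier results of these data known, and 2 listed genes are not reported here and were left out of their lists. All 10 members are named, and from each list the 2 genes with the smallest p, besides the markers Drd1, Ppp1r1b, Ttr, Ptgds, Emx1 and Neurod6.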

Additional observations from a re-analysis of the deposited data

Results flagged for a closer look

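Among 96 sets of 4 arrays (1 probe in 1 group), 5 had 1 array so far from the nearest other that the gap, as a share of the group's range, passed Dixon's 95% critical value for 4 samples. Chance alone gives about 1 in 20. Of 34 sets of member probes, 2 were among them. For Ldb2, control replicate 4 was low, with a ratio of 0.870 and a gap of 0.19 on the log2 scale. For the GGA repeat probe of Sox5, control replicate 1 was high, with a ratio of 0.839 and a gap of 0.23. The other 3 were not members: Folr1, high on ischemia replicate 4 (0.947), Cited2, low on control replicate 1 (0.877), and Reln, low on control replicate 1 (0.897).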

How the results depend on the processing

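Of the member probes, 0 passed the adjusted threshold under any of 20 alternatives. Over all features, where 0 probes passed, 1 passed with 1 probe per gene, 1 with the mean of a gene's probes, 1 with the authors' value table and 21 with a trended, robust variance, and between 0 and 1 with an array left out (1 without control replicate 4). The Fezf2 difference stayed positive under all 20 alternatives, between 0.18 and 0.26, with a limma adjusted p between 0.285 and 0.930. Because its groups did not overlap, leaving out or weighting arrays could not turn this sign. Several other alternatives, such as the trended variance and the replicate block, leave the difference itself unchanged. Tle4, Zfpm2, Crym and Sox5 also kept their sign under the alternatives run, Sox5 with its other probe too, but their sizes moved by over 1.5 times: with 1 array left out Tle4 lay between 0.020 and 0.107, Zfpm2 between 0.079 and 0.291, Crym between -0.348 and -0.115, and Sox5 between -0.094 and -0.0044. Signs turned for members close to 0: Etv1 was -0.003415 with normexp, Etv1 -0.029, Tbr1 -0.001667 and Foxp2 0.13 with the mean of a gene's probes, and Bcl11b -0.059 and Ldb2 0.078 without ischemia replicates 1 and 4. With each array left out in turn, Bcl11b lay between -0.029 and 0.074, Tbr1 between -0.027 and 0.15, Foxp2 between -0.15 and 0.15, Etv1 between -0.013 and 0.031, and Ldb2 between -0.10 and 0.029. The members' median lay between -0.02 and 0.07, and the medians of the upper layer, regulator, target, excitatory, striatal and interneuron lists between -0.06 and 0.10. With the replicate number as a block, Fezf2 had an unadjusted p of 0.0251 and a limma adjusted p of 0.406, and 0 probes passed. In that limma fit Crym had an unadjusted p of 0.0724 (adjusted 0.490) and Zfpm2 one of 0.101 (adjusted 0.529), both lower than without the block. The brightest probes of the remaining members had an unadjusted limma p between 0.408 and 0.904. The same-numbered arrays deviated together with r of 0.08, -0.07, 0.27 and 0.36, so the numbers were not taken to pair the samples, and not every array correlated best with its own number. The causes of these shifts were not tested.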
